A study of Mus musculus with 2 samples.

Results

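Snord118 and Snord13 encode U8 and U13, small nucleolar RNAs (snoRNAs) that are transcribed from their own promoters. They were taken by symbol, as 2 of 1558 snoRNA and scaRNA genes and of 55414 genes in all, and each symbol occurred once in the files. Both were selected on values of these same libraries, namely their UMIs (unique molecular identifiers, each counted as 1 captured RNA molecule) in treated and untreated nuclei, in nuclei and low-UMI barcodes, and beside Rn18s-rs5, the annotated 18S rRNA gene. Those contrasts are therefore given as descriptions.

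The nuclei came from C2C12 cells, a mouse myoblast line, and were fixed in methanol before single-nucleus RNA-sequencing in droplets. In the in situ polyadenylated library, nuclei were incubated at 37 °C for 25 min with yeast poly(A) polymerase and ATP, which adds adenines to RNA 3′ ends so that RNAs without a tail can be primed. Nuclei of the standard library were counted right after the wash, with neither enzyme nor warm incubation, so these cannot be told apart. Each group had 1 library, there were no replicates, and every interval is a 95% interval that covers counting error only.

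Most box C/D snoRNAs are cut out of introns of host genes, whereas U8 and U13 are made by RNA polymerase II from promoters of the small nuclear RNA type and receive a trimethylated cap. Both carry a C box and a D box, short motifs that are bound by fibrillarin, Nop56, Nop58 and Snu13. U8 is needed for processing of the 5.8S and 28S rRNAs, and U13 guides the acetyltransferase Nat10 to a cytidine near the 3′ end of 18S rRNA.

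The annotated sequence of Snord118 is shown for its ends and motifs, whose bearing on tailing and counting was not tested. It is given 5′ to 3′ as DNA letters of GRCm39, with the C box (TGATGA) and the D box (CTGA) in capitals.
Snord118: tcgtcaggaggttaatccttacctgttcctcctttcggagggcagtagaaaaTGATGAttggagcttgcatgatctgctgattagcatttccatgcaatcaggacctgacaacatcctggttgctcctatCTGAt

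Snord118 (ENSMUSG00000064899.3) lay on the plus strand at chr11:68964253-68964387 and was 135 nt long with a GC content of 45.9%. Its C box began at base 53 and its last D box at base 131, which left 1 base after the D box. Snord13 (ENSMUSG00000088252.3) was 104 nt long with a GC content of 50.0%, and its D box left 2 bases after it. Neither RNA held a long run of adenines, the longest being 4 bases in Snord118 and 3 bases in Snord13, and in the 100 bases downstream of each gene the longest runs were 3 and 2 bases.

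Snord118 lay inside the span of Tmem107, a gene for a ciliary transition zone protein, on the same strand but overlapping none of its exons in GENCODE M39. Snord13 lay in an exon of the lncRNA Gm63719 of GENCODE M39, which is not in the deposited gene list. The best match of Snord118 elsewhere in the genome was Gm24208 on chromosome 12, at 96.2% identity over 133 bases. The 2 share 34 of the 105 31-mers of Snord118, so reads from that stretch could not be assigned to 1 gene. Gm24208 held 4 UMIs in in situ polyadenylated nuclei of the STAR matrix and 0 in standard nuclei. No 31-mer of Snord13 was shared with a gene of the files, but all 74 of its 31-mers lie in Gm63719. Reads of that lncRNA could therefore be counted as Snord13. The best match of Snord13 elsewhere lay within Atp6v0a4, at 95.1% identity over 103 bases. Atp6v0a4 held 57 UMIs in in situ polyadenylated nuclei of the STAR matrix and 41 in standard nuclei. The part of Gm63719 or of copies in the Snord13 counts was not tested.

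For each library 2 deposited matrices were used. The kallisto matrix, the main one, counts reads matched to transcripts in every barcode, and nuclei were the barcodes with more than 750 UMIs and under 5% mitochondrial UMIs. The filter left 1335 in situ polyadenylated nuclei with a median of 1088 UMIs and 1123 standard nuclei with a median of 996. The STAR matrix counts reads aligned to the genome in a subset of barcodes, and the filter kept 3758 and 8226 of these, whose median depths were 4007.5 and 1996 UMIs. Per the protocol 3300 nuclei were loaded for a target of 2000, so the STAR matrices pass more barcodes than nuclei went in, and some of these barcodes may hold no nucleus. Nuclei of the libraries shared 0 barcodes by kallisto and 12 by STAR. All 10 myoblast markers, among them Myod1 and Des, had a UMI in nuclei of each library. Their summed levels were 799.7 and 1761 CPM (counts scaled so that a set of barcodes sums to 1000000). Most of these sums came from Vim, which gave 922 of 1579 marker UMIs in treated nuclei and 1314 of 2436 in standard nuclei. Myod1 had 15 and 13. The 10 markers of other cell types summed to 11.6 and 57.8 CPM, with 7 and 5 of them at 0.

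U8 and U13 were counted almost only after in situ polyadenylation. In kallisto nuclei Snord118 had 748 UMIs, or 379 CPM (352 to 407), in the in situ polyadenylated library and 0 UMIs in the standard library. With the 0 set to a floor of 3 UMIs for the library, its level was at least 175-fold higher. Snord13 had 375 UMIs, or 190 CPM (171 to 210), against 1 UMI, a ratio of 263 with an interval of 46.9 to 10402 that the single UMI leaves wide. Both were thus more than 2-fold higher, as were 1.46% of the 8433 genes that reached 20 UMIs over both sets of nuclei. In the other direction 75.7% of those genes were more than 2-fold lower, and the median log2 ratio of all 8433 was -1.41. Levels in the nuclei are thus shares of a total that differed in make-up between the libraries. Per the methods the nuclei were handled with SUPERase-In, an RNase inhibitor. In tissue sections the study found that longer transcripts were still degraded with it during polyadenylation. Its part in the lower values here was not tested.

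More UMIs were available over all barcodes and with STAR, and there the standard library gave values above 0 for both. Over all kallisto barcodes Snord118 had 6511 UMIs against 6, a 1700-fold ratio (781 to 4635). Snord13 had 3363 against 39, a 135-fold ratio (98.6 to 190). In STAR nuclei the counts were 19318 against 34 for Snord118, a 567-fold ratio (406 to 819), and 11115 against 67 for Snord13, a 166-fold ratio (130 to 214). The intervals of the 2 genes did not overlap in either set, with Snord118 the higher. Rn18s-rs5 had a ratio of 1.65 in kallisto nuclei and 0.965 in STAR nuclei.

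**Figure D1:**
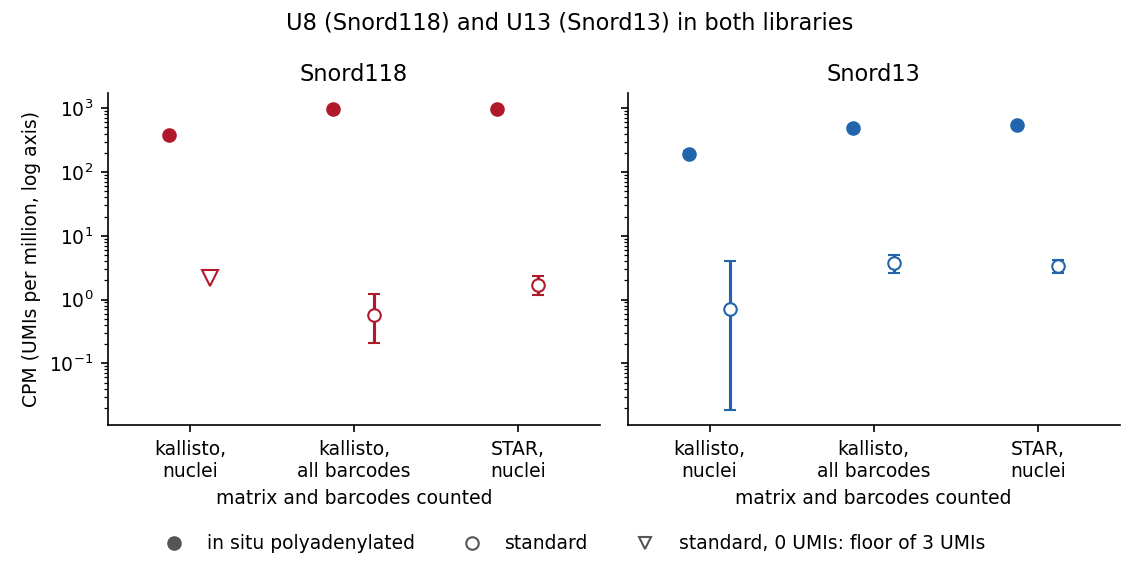
Level of Snord118 and Snord13 in CPM (log axis) in kallisto nuclei, all kallisto barcodes and STAR nuclei, with filled points for the in situ polyadenylated library, open points for the standard library and exact Poisson 95% intervals. The open triangle marks the floor of 3 UMIs, or 2.17 CPM, that stands for the 0 UMIs of Snord118 in standard kallisto nuclei, and each filled point lies above the open symbol beside it and its interval.

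Other small RNAs with promoters of their own were higher as well. Of 12 independently transcribed small RNAs, 6 reached 20 UMIs over both sets of nuclei, each of them through the in situ polyadenylated library. All 6 were more than 2-fold higher, against 1.46% of all 8433 genes. Their median log2 ratio was 7.69, Snord118 taken at its bound, against -1.41 over all genes. Besides the 2 members these were Rpph1, the RNA of RNase P, with 850 UMIs against 1, Rmrp, the RNA of RNase MRP, with 347 against 1, 7SK, which holds P-TEFb inactive, with 1382 against 6, and Vaultrc5, a vault RNA, with 24 against 1. U3, the snoRNA of early 18S rRNA processing, is annotated at 5 loci with 2 overlapping entries each. Of these entries 9 of 10 had 0 UMIs, and 1 entry at the Snord3a locus had 54 UMIs against 0. Reads that match both entries of a locus may not be assigned to either, which was not tested. These counts are therefore not read as levels of U3. Of 10 listed intronic box C/D snoRNAs of rRNA processing, 4 reached the minimum, again through the in situ polyadenylated library, and all 4 were higher. Of the 4, 3 had 0 UMIs in the standard library, so their ratios are lower bounds set by the floor, and the median log2 ratio of 3.78 takes them at those bounds. A minimum passed in this way favours higher genes, so the counts of both lists are descriptions and test nothing.

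The mRNAs of the partners of U8 and U13 are read against the shares over all 8433 genes, 1.46% more than 2-fold higher and 75.7% more than 2-fold lower. None of the 4 core proteins of box C/D particles was more than 2-fold higher and 2 were more than 2-fold lower, with a median log2 ratio of -1.06. Fibrillarin (Fbl), the methyltransferase of the particle, was counted 12 times against 27, with a log2 ratio of -1.68 (-2.80 to -0.65), and Snu13, which binds the C and D boxes first, had 11 against 14. Of 13 assembly and cap maturation factors with the minimum, 8 were lower and 0 higher, with a median of -1.18. Nopchap1, an assembly factor, was the lowest of them, at 140 UMIs in treated and 531 in standard nuclei (log2 ratio -2.43, interval -2.72 to -2.17). Of 10 factors tied to U8 or U13, 5 were lower and 0 higher, with a median of -1.18, and among them Nat10 had 113 UMIs against 228. Of 14 genes of the SNAPc and Integrator complexes, which act on promoters and 3′ ends of this gene type, 10 were lower and 0 higher, with a median of -1.52. In each of these lists the share of lower genes was below that over all genes, and the median of all genes, -1.41, lay among the lists' medians.

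In the in situ polyadenylated nuclei, Snord118 had the most kallisto UMIs of the snoRNA and scaRNA genes and Snord13 the fourth most. These ranks hold for UMIs as assigned to single genes. Loss of reads at repeated entries, such as those of U3, was not tested. The class held 4356 UMIs in 1558 genes, of which Snord118 took 17.2% (16.1 to 18.3) and Snord13 took 8.61% (7.79 to 9.48). Between them stood Snord17, an intronic box C/D snoRNA, with 572 UMIs, and Scarna2, a guide RNA of Cajal bodies, with 503. Gm24616 followed with 218, Snord72 with 144 and Gm25128 with 113. Outside nuclei the order differed, and over all barcodes of the library Snord17 came first with 8103 UMIs against 6511 for Snord118. In the STAR matrix most genes of the class were at 0, where they shared rank 58 of 1558, among them Snord17, Gm24616, Snord72 and Gm25128. The 2 members together took 61.2% of the class there, which is a share among the few genes that STAR counted.

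Over the 3791 in situ polyadenylated barcodes that the matrices share, Snord118 had 1386 UMIs by kallisto and 19345 by STAR, and Snord13 had 682 and 11129. The STAR count was thus 14.0 times and 16.3 times the kallisto count, against 6.49 times for all genes together and 1.81 times for Rn18s-rs5. Scarna2 (3.88 times), Rpph1 (4.55 times) and 7SK (1.19 times) gained less than all genes together, and Rmrp was listed at 0 by STAR. Levels by kallisto and STAR are therefore not read on 1 scale below.

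By kallisto most nuclei lacked a UMI of each RNA. Snord118 was detected in 478 of the 1335 in situ polyadenylated nuclei, or 35.8% (33.2 to 38.4), with a mean of 0.560 UMIs and a maximum of 8. Exactly 1 UMI of it was found in 305 nuclei, and 5 or more in 8. Snord13 was detected in 305 nuclei as well, or 22.8% (20.6 to 25.2), with a mean of 0.281 and a maximum of 3. Thinned to 750 UMIs per nucleus, Snord118 was found in 23.2% of nuclei and Snord13 in 13.3%. In the standard library Snord118 was found in 0 of 1123 nuclei, which allows a share of nuclei with a UMI of up to 0.267%, and Snord13 in 1. No cell type that lacks these RNAs exists in the data, so these shares have no such background. Barcodes with 1 to 100 UMIs, which free RNA can fill, held both RNAs at higher levels than nuclei did, at 2029 against 379 CPM for Snord118 and 1066 against 190 CPM for Snord13. The shares therefore count nuclei with a UMI and not nuclei that made the RNA, and the part of free RNA in them was not tested.

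In the deeper STAR matrix most barcodes that passed the filter had a UMI of each RNA. Low-UMI barcodes were counted by kallisto alone, so no background stands beside these shares. Snord118 was found in 94.1% (93.3 to 94.8) and Snord13 in 86.2% (85.0 to 87.3) of the 3758 nuclei, with medians of 4 and 2 UMIs and maxima of 77 and 36. Thinned to 750 UMIs the shares were 49.4% and 33.9%, still above the kallisto values at the same depth. Both were found in 3094 nuclei, Snord118 alone in 441, Snord13 alone in 144 and neither in 79. Nuclei with both had a median of 4320 UMIs and nuclei with neither one of 1840. In the standard library 34 nuclei held Snord118 and 67 held Snord13 of 8226, each with 1 UMI and none with both.

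**Figure D2:**
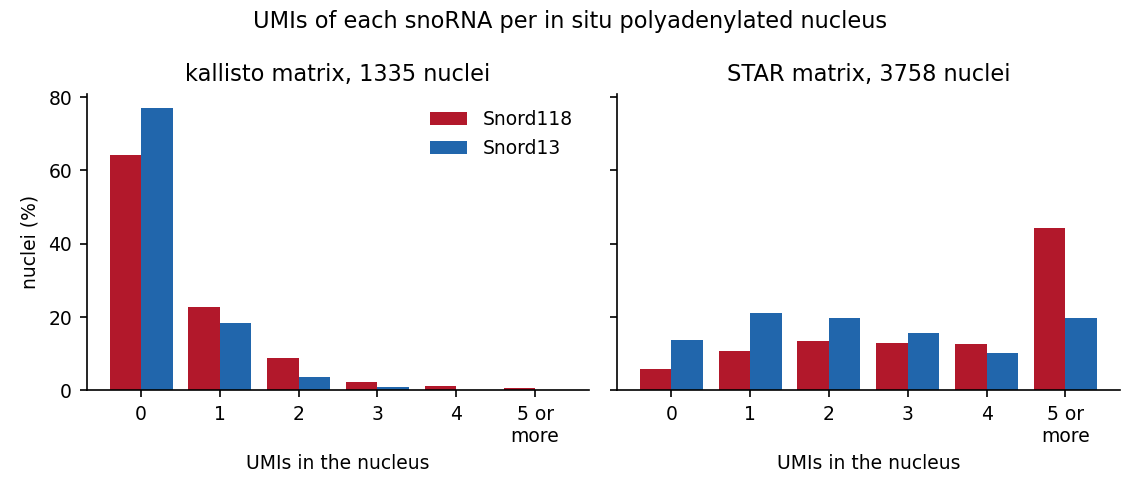
Share of in situ polyadenylated nuclei (%) with 0, 1, 2, 3, 4 and 5 or more UMIs of Snord118 (red) and Snord13 (blue), in the kallisto matrix (left) and the STAR matrix (right). By kallisto 64.2% and 77.2% of nuclei had 0 UMIs, and by STAR 44.4% and 19.6% had 5 or more.

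The UMIs of both genes followed the depth of the nucleus. Across the 3758 STAR nuclei the coefficient with total UMIs was 0.80 (Pearson) and 0.64 (Spearman) for Snord118 and 0.76 and 0.56 for Snord13. By kallisto the relation was weaker, at 0.43 and 0.27 for Snord118 and 0.33 and 0.24 for Snord13. As shares of each nucleus's UMIs, the 2 RNAs had a coefficient of 0.18 with each other by STAR (Pearson 0.184, Spearman 0.180). By kallisto it was 0.0578 and 0.0803 over 1335 nuclei. Such shares do not take depth out fully, since whether a share is 0 still depends on it. These are descriptions over nuclei of 1 library, and values this weak in sparse counts are no finding. The tenth of kallisto nuclei with the most Snord118 (133 nuclei) held 48.5% of its UMIs, and in STAR 375 nuclei held 31.5%.

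U8 and U13 kept nearly the same proportion in every set of in situ polyadenylated barcodes. The ratio of Snord118 to Snord13 UMIs was 1.99 (1.76 to 2.26) in nuclei and 1.90 (1.81 to 2.00) in barcodes with 1 to 100 UMIs. Over 6 classes of barcode depth it ran from 1.85 to 2.16, and every interval overlapped the others. By STAR it was 1.74 (1.70 to 1.78). The few molecules of the standard library had the reverse order. Their ratio was 0.154 (0.0532 to 0.366) over all kallisto barcodes and 0.508 (0.326 to 0.778) in STAR nuclei. In that library Snord118 was 1.03% and Snord13 6.67% of the 585 snoRNA UMIs in kallisto barcodes. Whether its Snord13 UMIs came in part from Gm63719 or a copy was not tested.

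Both RNAs made up a larger share of low-UMI barcodes than of nuclei. In the in situ polyadenylated library Snord118 had 4170 UMIs, or 2029 CPM (1967 to 2091), in the 229964 barcodes with 1 to 100 UMIs, and 379 CPM in nuclei. That is a 5.35-fold ratio and a log2 ratio of 2.42 (2.31 to 2.53). Snord13 had 2191 UMIs, or 1066 CPM (1022 to 1111), against 190, a 5.61-fold ratio and a log2 ratio of 2.49 (2.33 to 2.65). Of the 8019 genes that reached 20 UMIs over the pair of sets, 18.4% were more than 2-fold higher in low-UMI barcodes. Rn18s-rs5 had a log2 ratio of 0.21 and Malat1, a nuclear lncRNA, one of 0.68. In the standard library Snord118 had 3 UMIs in low-UMI barcodes and 0 in nuclei, and Snord13 had 21 and 1, a log2 ratio of 3.60 (0.96 to 8.97).

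The members lay in the middle of the genes of their class that reached a minimum count. Among the 64 other snoRNA and scaRNA genes with at least 50 UMIs in low-UMI barcodes and nuclei together, the median log2 ratio was 2.47 (quartiles 2.21 and 2.80), from -0.11 to 3.59, and 63 were above 0. Snord118 had 31 of them below it and 33 above, and Snord13 had 33 below and 31 above. The minimum is on the sum, and genes such as Gm26202 (50 UMIs in low-UMI barcodes and 4 in nuclei) passed it mainly through low-UMI barcodes. Such a minimum favours high ratios, so the number above 0 and the place of the members hold for this filter only. Snord17 was further from nuclei at 3.32 and Scarna2 stood at 2.21. Of the other independently transcribed RNAs, Rmrp, Rpph1 and 7SK were nearer to nuclei. Rmrp had a log2 ratio of 1.53 (1.35 to 1.71), Rpph1 of 1.08 (0.97 to 1.20) and 7SK of 0.36 (0.26 to 0.47), and none of these intervals reached those of the members. Vaultrc5 stood at 2.80 (2.18 to 3.48) on 174 UMIs in low-UMI barcodes and 24 in nuclei, and its interval held both of their values.

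**Figure D3:**
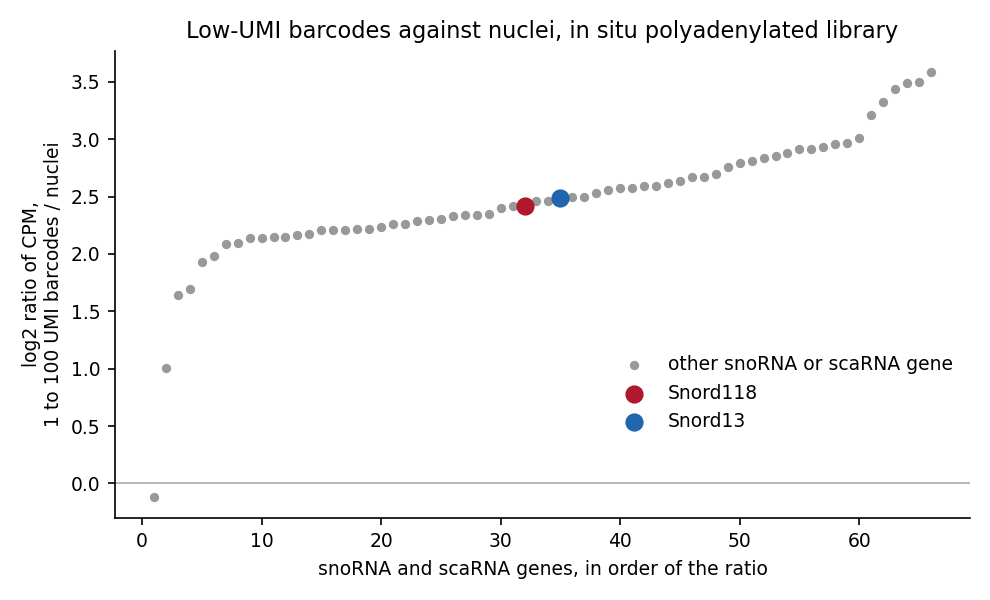
Log2 ratio of CPM in barcodes with 1 to 100 UMIs over nuclei of the in situ polyadenylated library, for 66 snoRNA and scaRNA genes in order of the ratio. Snord118 (red, 2.42) and Snord13 (blue, 2.49) sit in the middle of the row, and 1 gene lies below the line at 0.

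The share changed by steps with barcode depth, while the number of molecules per barcode rose. Snord118 had 1784 CPM in barcodes with 1 to 10 UMIs and 2052 CPM in those with 11 to 100. It had 733 CPM above 100 and up to 300 UMIs, 486 CPM up to 750, 374 CPM up to 1500 and 383 CPM (346 to 423) over 1500. The 2 deepest classes did not differ beyond their intervals. Snord13 had 839, 1087, 371, 240, 203 and 178 CPM in the same order. Per barcode, Snord118 rose from 0.00215 UMIs in the shallowest class to 0.0473, 0.138, 0.223, 0.376 and 1.04 in the deepest. Barcodes with 11 to 100 UMIs held 59.1% of all Snord118 UMIs and 60.7% of all Snord13 UMIs of the library, against 29.5% of those of Rn18s-rs5. Per 1000 UMIs of Rn18s-rs5, Snord118 had 3.59 in that class and 0.864 in the deepest.

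**Figure D4:**
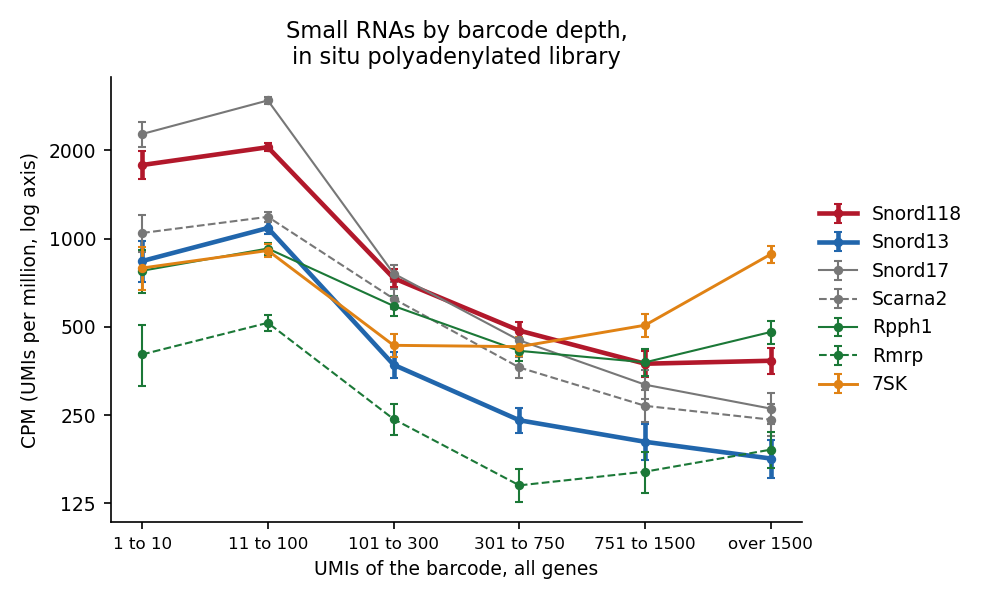
CPM (log axis) of 7 small RNAs in 6 classes of barcode depth of the in situ polyadenylated library, with exact Poisson 95% intervals. Snord118 (red) falls from 2052 to 383 and Snord13 (blue) from 1087 to 178 between the second and the last class, while 7SK (orange) ends at 885, close to its 911 in the second.

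The genes with the profile over these classes most like that of Snord118 were Snord13, Gm25128, Snord35a, Gm24616 and the lncRNA 1110038B12Rik, with root mean square differences of 0.0822 to 0.147 on the log2 scale over 6 classes. For Snord13 they were Snord118, Gm22574, Snord72, Gm24616 and Snord43, from 0.0822 to 0.155. Each member was the nearest of 2085 genes to the other. Counting error adds to these differences, and the members had 6511 and 3363 UMIs against 542 to 2156 for the other genes named. Gm22574 is named Snord138 in GENCODE M39, so all but 1110038B12Rik carry a snoRNA name or type. 1110038B12Rik differed from the rest in having 885 UMIs in the standard library, where the others had 2 to 39.

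Finally, levels were set beside the 18S rRNA that U13 pairs with. The in situ polyadenylated nuclei were put in order of the Rn18s-rs5 share of their UMIs and cut into 4 groups of nearly equal size, with median shares of 34.8%, 47.8%, 56.5% and 63.8% by kallisto. The groups also differed in depth, with medians of 1389.5, 1136.5, 1037 and 997 UMIs. Per nucleus, Snord118 had 0.814, 0.482, 0.524 and 0.420 UMIs in the same order. As CPM of the UMIs outside Rn18s-rs5, Snord118 had 644 (570 to 725), 589 (502 to 688), 948 (813 to 1099) and 995 (837 to 1174). The upper pair of groups lay above the lower pair, and the log2 ratio of the last over the first was 0.63 (0.32 to 0.93). Snord13 had 324, 337, 460 and 433, with a log2 ratio of 0.42 (-0.04 to 0.86) that includes 0.

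This order depended on the denominator and the matrix. As CPM of all UMIs the log2 ratio of the last over the first group was -0.32 (-0.62 to -0.02) for Snord118 and -0.53 (-0.99 to -0.08) for Snord13. By STAR, where the groups had median Rn18s-rs5 shares of 8.62% to 24.1%, Snord118 outside Rn18s-rs5 had 1091, 1157, 1157 and 994 CPM, a log2 ratio of -0.13 (-0.20 to -0.07). Snord13 had 623, 655, 668 and 600 CPM, a log2 ratio of -0.05 (-0.14 to 0.03). The coefficient between the share of a member outside Rn18s-rs5 and the Rn18s-rs5 share lay between -0.08 and 0.13 over the 1335 and 3758 nuclei.

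**Figure D5:**
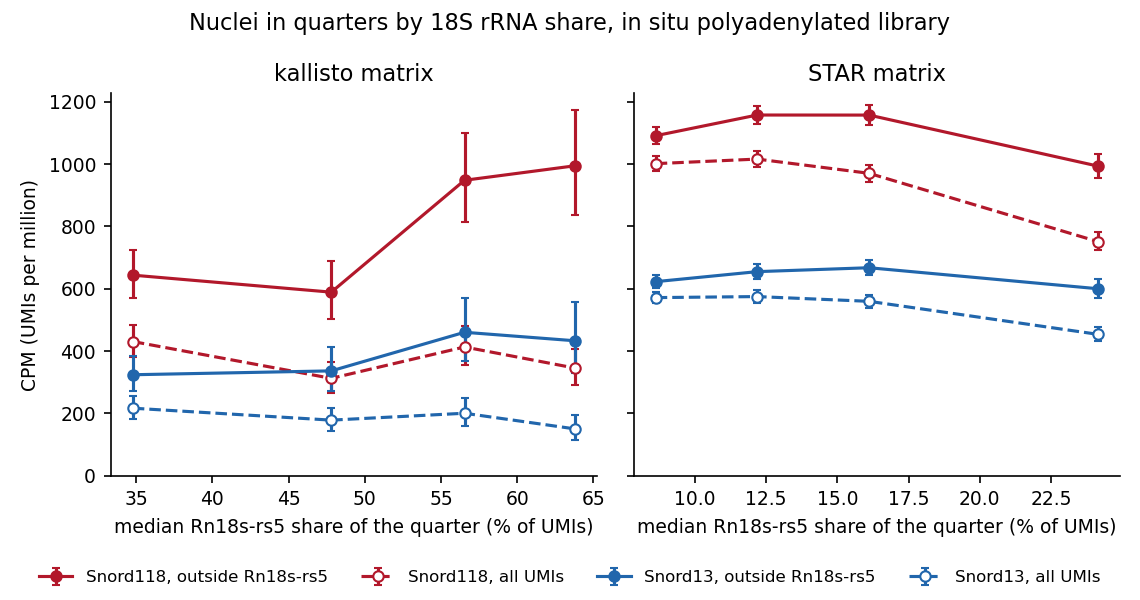
CPM of Snord118 (red) and Snord13 (blue) in 4 groups of in situ polyadenylated nuclei, placed at their median Rn18s-rs5 share (% of UMIs), by kallisto (left) and STAR (right), of the UMIs outside Rn18s-rs5 (filled, solid) or of all UMIs (open, dashed), with exact Poisson 95% intervals. The filled red points rise from 644 to 995 by kallisto and end at 994, below their start of 1091, by STAR.

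Another abundant feature moved with this denominator. ENSMUSG00002075551, an annotated miRNA gene, had 0 UMIs in 828 kallisto nuclei and was above 0 in 507. Snord118 had 379 CPM of all UMIs in each set, with intervals of 342 to 418 and 341 to 420. Outside Rn18s-rs5 it had 880 CPM (795 to 973) in the nuclei at 0 and 622 (560 to 689) in the others, and with ENSMUSG00002075551 also left out of the total the latter became 1263 (1137 to 1400). Its part in the order by Rn18s-rs5 was not tested.

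Nuclei were also ordered by the Malat1 share of UMIs outside Rn18s-rs5. The values for this order are CPM of the UMIs outside Rn18s-rs5, a total that still holds ENSMUSG00002075551. These groups also differed in median Rn18s-rs5 share, at 40.7%, 52.0%, 57.0% and 54.8% by kallisto. By STAR it went from 10.0% in the lowest group to 22.7% in the highest, and median depth from 4466 to 3118 UMIs. The part of these differences was not tested. Snord118 had 793, 803 and 869 CPM in the lower 3 groups and 443 (361 to 538) in the highest, a log2 ratio of -0.84 (-1.18 to -0.50) of highest over lowest. Snord13 had 372, 388, 399 and 308, a log2 ratio of -0.27 (-0.71 to 0.16). By STAR the same log2 ratios were -0.20 (-0.27 to -0.14) and -0.06 (-0.15 to 0.02). Nuclei were last put in order of total UMIs, with levels as CPM of all UMIs. The log2 ratio of the deepest over the shallowest kallisto nuclei was -0.04 (-0.36 to 0.28) for Snord118 and 0.22 (-0.27 to 0.75) for Snord13, and both intervals include 0. By STAR it was -0.10 (-0.16 to -0.03) for Snord118 and -0.18 (-0.27 to -0.09) for Snord13, and both intervals lie below 0.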

How the data were processed

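Per the submitters' processing notes and the study's methods, the authors trimmed reads with cutadapt 3.4 and quantified them against GRCm39 and GENCODE M28. The deposited kallisto matrices (kallisto 0.48.0, bustools 0.41.0) hold estimated counts of UMIs, not normalized, and the deposited STAR matrices (STAR 2.7.10a) hold whole-number UMI counts, not normalized. The 12 files comprised 6 per library. All entries of both members in the kallisto matrices were whole numbers. The choice of the STAR barcodes is not stated in the sources used here.

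UMIs were summed over barcodes and divided by the total of the same barcodes. Levels carry exact Poisson, shares exact Clopper-Pearson and ratios exact conditional Poisson 95% intervals. With 1 library per group no test was made, nuclei were not treated as replicates and doublets were not called. For a library at 0, a floor of 3 UMIs was used, and for a share at 0, 3 nuclei of the total. Genes named were the members, Rn18s-rs5, overlapping or neighbouring genes, copies, the 5 nearest genes by depth profile (at least 200 UMIs), extreme genes of the lists and the 5 most abundant other snoRNAs. Other genes (Malat1, Myod1, Vim, ENSMUSG00002075551 and the small RNAs beside the members) were picked after their values were seen. Members and lists were chosen with earlier results of these data known. Of 55414 genes, 54749 were matched by identifier to GENCODE M39, which gave positions and classes. Copies were sought with BLAST+ 2.17.0. The code was tested on simulated data. The sequence and position of Snord13 are not reported here.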

Additional observations from a re-analysis of the deposited data

How the results depend on the processing

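Of 56 alternative values for 11 results, 30 stayed within the 95% interval of the value given, 24 left it and 2 turned the direction. The log2 ratio of the libraries for Snord118 (7.45, a bound) was 8.34 with more than 500 UMIs per nucleus, 5.89 with more than 1500, 7.22 without the 5% of nuclei with the most UMIs, 9.15 by STAR and 7.90 without rRNA and mitochondrial UMIs. For Snord13 (8.04) it was 4.78 with more than 1500 UMIs, where the standard count was 0. Detection of Snord118 (35.8%) was 29.3% with more than 500 UMIs, 53.6% with more than 1500 and 94.1% by STAR, and thinned (23.2%) it was 16.1% at 500 UMIs and 49.4% by STAR. Detection of Snord13 (22.8%) was 17.9%, 36.1% and 86.2%, and thinned (13.3%) it was 8.39% at 500 UMIs, 11.3% with more than 1500 and 33.9% by STAR. Low-UMI barcodes over nuclei gave log2 ratios of 2.24 for Snord118 and 2.14 for Snord13 with barcodes of 1 to 10 UMIs, and 2.66 and 2.73 without rRNA and mitochondrial UMIs. In the order by Rn18s-rs5, Snord118 turned from 0.63 to -0.13 by STAR and to -0.32 per all UMIs, and Snord13 went from 0.42 to -0.053 and -0.53. The cause was not tested. The ratio of Snord118 to Snord13 was 1.74 by STAR.

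Counts limit the standard library most, where both members held 1 UMI in kallisto nuclei together. No paired analysis was possible because with 1 library in each group no fit with a block exists.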
